A study of Homo sapiens with 12 samples.

Results

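The 4 humanin-like genes MTRNR2L1, MTRNR2L2, MTRNR2L3 and MTRNR2L8, which are nuclear copies of the mitochondrial large ribosomal RNA, were examined together with a mitochondrial segment inserted in chromosome 1. Sites were taken by midpoint in 5 stranded windows of build hg19. These were chr17:22020001-22030000 on the plus strand (MTRNR2L1), chr5:79945001-79947500 on the minus strand (MTRNR2L2), chr20:55930001-55940000 on the minus strand (MTRNR2L3), chr11:10520001-10531000 on the minus strand (MTRNR2L8) and chr1:560001-571000 on the plus strand. They held 305 of the 513381 protein-protected sites of the 6 replicate lists, 232 of them at the humanin-like loci and 73 in the chr1 segment. The loci were chosen on the difference between the nucleases in these same lists, so that difference is given as a description and carries no test.

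The sites come from protein interaction profile sequencing of HEK293T, an established cell line of human embryonic kidney origin. Fixation was with 1% formaldehyde, lasted 10 minutes and was stopped by 125 mM glycine, after which cells were lysed and DNA was removed. The lysate was digested with a ssRNase (RNaseONE, specific for unpaired RNA) or a dsRNase (RNaseV1, specific for paired RNA). RNA shielded by protein survives this digestion. In footprint libraries protein was present during digestion, whereas in digestion controls it had been removed beforehand with 1% SDS and proteinase K. The 4 groups were ssRNase footprint, ssRNase digestion control, dsRNase footprint and dsRNase digestion control, with 3 replicates each. Cross-links were reversed at 65 °C for 2 hours in all of them. The labels do not state that replicates were separate cultures, so the spread between lists may be technical. Each of the 6 lists sets a footprint against its own control, matched in nuclease and replicate number. The lists give positions, a strand and a score, but neither read counts nor expression levels. Read depth is therefore unknown and the identity of the cells was not checked from markers. The ssRNase lists held 57481 to 209922 sites with 2915002 to 10193603 bases, and the dsRNase lists held 21561 to 28413 sites with 798935 to 979087 bases.

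Mitochondria transcribe their small and large ribosomal RNAs, 12S and 16S, from MT-RNR1 and MT-RNR2, and both are packed with ribosomal protein inside the organelle. The 16S gene holds a short reading frame for humanin, a peptide known for protecting cells from death signals. Copies of mitochondrial DNA have repeatedly been inserted in nuclear chromosomes. The MTRNR2L genes are such copies of the 16S gene and keep a humanin-like reading frame, whereas other insertions carry stretches of mitochondrial protein-coding genes.

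The humanin stretch shows how close the nuclear copies are to their mitochondrial parent. It was read from the GENCODE release 29 transcripts (GRCh38, each 5′ to 3′ on its own strand). Capitals mark bases that differ from MT-RNR2, and positions are counted from 1 at the first base shown.
MT-RNR2: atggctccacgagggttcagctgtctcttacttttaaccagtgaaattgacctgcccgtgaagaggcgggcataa
MTRNR2L1: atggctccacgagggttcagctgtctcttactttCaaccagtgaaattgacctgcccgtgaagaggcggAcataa
MTRNR2L8: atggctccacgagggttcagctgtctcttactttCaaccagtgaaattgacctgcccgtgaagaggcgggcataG
MTRNR2L3: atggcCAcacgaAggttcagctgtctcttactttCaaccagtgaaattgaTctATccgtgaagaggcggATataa
MTRNR2L2: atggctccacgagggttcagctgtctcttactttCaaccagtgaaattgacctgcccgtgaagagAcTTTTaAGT

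All 4 nuclear copies carried T35C. MTRNR2L1 and MTRNR2L8 each differed from MT-RNR2 at 2 of the 75 positions, MTRNR2L1 also by G70A and MTRNR2L8 also by A75G, which falls in the stop codon. MTRNR2L3 differed at 9 positions spread along the stretch. MTRNR2L2 also differed at 9, of which 8 lie at position 66 or beyond, where its annotated transcript of 87 nt, a processed pseudogene in this annotation, departs from the mitochondrial sequence.

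Over whole transcripts MTRNR2L8 was the closest copy, with 93.1% identity to MT-RNR2 over 1301 aligned bases and a longest identical run of 88 nt. MTRNR2L1 had 88.6% identity with a longest run of 60 nt, and MTRNR2L3 had 79.6% with a longest run of 45 nt. The aligned part of MTRNR2L2 was only 65 nt, at 98.5% identity. In the same annotation the chromosome 1 run near MTCO1P12 holds 7 pseudogenes on the plus strand, MTND1P23, MTND2P28, MTCO1P12, MTCO2P12, MTATP8P1, MTATP6P1 and MTCO3P12, named for mitochondrial genes of respiratory chain and ATP synthase subunits. They were 97.6% to 99.1% identical to their mitochondrial genes. Only plus-strand pseudogenes named for such protein-coding genes were looked up. The list therefore cannot show whether the run also holds a ribosomal RNA copy. Their positions were not carried over to hg19.

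A sequenced fragment can be told apart between 2 places only where they differ, so the share of short stretches that occur letter for letter in the mitochondrial counterpart was counted. Of all 30-nt stretches, 60.4% of the chr1 pseudogenes, 23.0% of MTRNR2L8, 6.82% of MTRNR2L1 and 1.46% of MTRNR2L3 did so. At 50 nt the shares were 44.1%, 8.93% and 0.731%, and 0 of 1490 stretches for MTRNR2L3. The annotated MTRNR2L2 transcript offers few stretches, of which 6 of 58 (10.3%) were shared at 30 nt and 0 of 38 at 50 nt, and it is left out of the plot of stretch sharing. The humanin-like transcripts also share stretches with one another. At 30 nt these shares were 36 of 58 for MTRNR2L2, 8.56% for MTRNR2L8, 5.84% for MTRNR2L1 and 1.85% for MTRNR2L3. At 50 nt they were 16 of 38, 1.83%, 1.53% and 0 of 1490 in the same order. How long the reads were, and what was done with those fitting more than 1 place, is not stated in the sources used here.

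**Figure D1:**
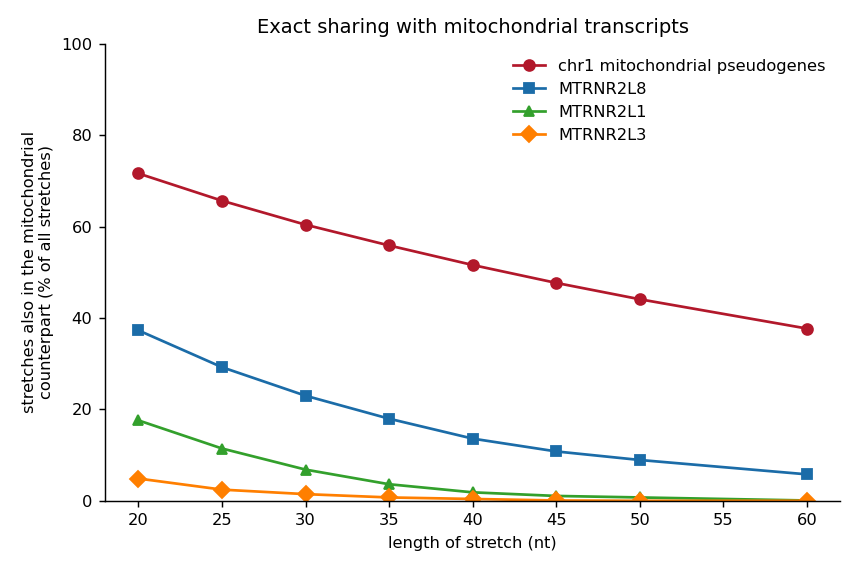
Share of stretches of a given length (x axis, nt) in each nuclear transcript that occur exactly in its mitochondrial counterpart (y axis, percent of all stretches), for the 7 chr1 pseudogenes pooled and for 3 humanin-like transcripts. At 30 nt the chr1 pseudogenes stand at 60.4%, MTRNR2L8 at 23.0%, MTRNR2L1 at 6.82% and MTRNR2L3 at 1.46%.

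At MTRNR2L8 the ssRNase lists held 572, 450 and 466 bases in sites for replicates 1, 2 and 3, and the dsRNase lists held 1312, 1331 and 1312. The dsRNase lists differed by little among themselves and all lay above the ssRNase lists. At MTRNR2L2 the values were 527, 352 and 442 bases with ssRNase and 1335, 1275 and 1290 with dsRNase. At MTRNR2L1 they were 188, 60 and 184 with ssRNase and 790, 849 and 770 with dsRNase. These loci too had dsRNase lists well above the ssRNase lists, and replicate 2 was the lowest of the ssRNase lists at all 3. That replicate has the shortest ssRNase list, and the part of list length in these values was not tested.

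MTRNR2L3 had the fewest protected bases, with 43, 10 and 9 with ssRNase and 348, 316 and 326 with dsRNase. Its transcript had the lowest identity to MT-RNR2 (79.6%), though that of MTRNR2L2 was aligned over only 65 nt. The chr1 segment had 166, 0 and 160 bases with ssRNase and 668, 1296 and 951 with dsRNase. Its dsRNase lists spread far more than those of the humanin-like loci, with a mean of 971.7 ± 314.5 bases (SD, n = 3) against 1318 ± 11.0 at MTRNR2L8, 1300.0 ± 31.2 at MTRNR2L2, 803 ± 41.1 at MTRNR2L1 and 330.0 ± 16.4 at MTRNR2L3. In order of mean dsRNase bases within these windows, MTRNR2L8 and MTRNR2L2 did not differ beyond their spread, and the range of the chr1 segment overlapped those of MTRNR2L2 and MTRNR2L1. The windows cut the protected runs of MTRNR2L8 and MTRNR2L2. With windows widened by 1000 bp, the dsRNase lists held 1685, 1659 and 1625 bases at MTRNR2L8 and 1518, 1463 and 1474 at MTRNR2L2. These 2 ranges then overlapped neither each other nor that of the chr1 segment. MTRNR2L3 lay below all others in every dsRNase list.

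The mitochondrial span that covers the ribosomal RNAs, chrM:640-3240 on the plus strand, held 699, 430 and 444 bases with ssRNase and 2425, 2482 and 2460 with dsRNase. Thus the span, of which the humanin-like genes resemble only the large ribosomal RNA, was nearly filled with sites in the dsRNase lists. Sites of any dsRNase list covered 96.8% of its 2602 nt from first to last site.

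Because dsRNase lists are much shorter, the contrast is wider when bases are set against the total of each list. Per 1000000 site bases of the list, MTRNR2L8 had 89.3 ± 56.3 with ssRNase and 1532 ± 151 with dsRNase (SD, n = 3 lists each). MTRNR2L2 had 75.7 ± 39.1 and 1513 ± 182, MTRNR2L1 had 20.6 ± 2.13 and 930.1 ± 54.6, and MTRNR2L3 had 2.92 ± 1.62 and 384 ± 53.9. The chr1 segment had 12.0 ± 10.5 and 1108 ± 266. The chrM span moved the same way, from 90.3 ± 50.03 to 2853 ± 283. Every dsRNase list lay above every ssRNase list at 5 of 5 nuclear loci, per 1000000 bases as well as in bases as listed. Per 1000000 site bases, the same held for 3010 of 31432 stranded windows of 10000 bp with a site in at least 3 lists, or 9.58% of them. No such share over all windows is given for bases as listed. The loci were chosen on this contrast, and nothing is read from the count.

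**Figure D2:**
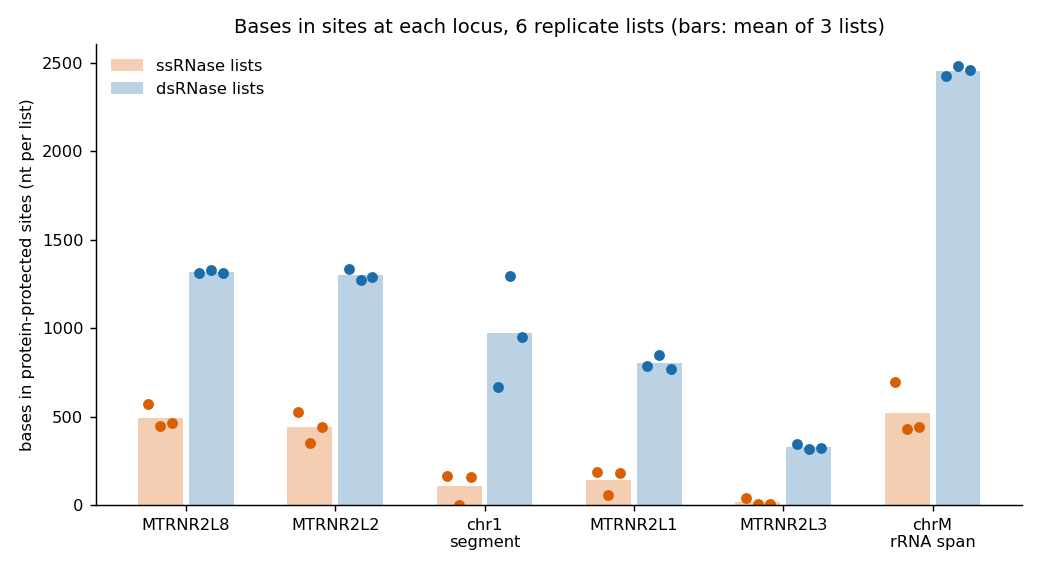
Bases in protein-protected sites per list (y axis, nt) at the 5 nuclear loci and the chrM ribosomal RNA span, for ssRNase (orange) and dsRNase (blue). Points are single replicate lists in the order 1, 2, 3 and bars are means of 3 lists. Points of the 2 nucleases do not overlap at any locus, and the dsRNase points of the chr1 segment range from 668 to 1296.

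Relative to the chrM span of the same dsRNase list, the bases at MTRNR2L8 were 0.537 ± 0.00389 of the mitochondrial bases (SD, n = 3). The ratio was 0.530 ± 0.0189 at MTRNR2L2, 0.327 ± 0.0146 at MTRNR2L1, 0.134 ± 0.00826 at MTRNR2L3 and 0.395 ± 0.124 at the chr1 segment. The 4 humanin-like loci together held 1.53 ± 0.0297 times the bases of the mitochondrial span with dsRNase and 2.14 ± 0.304 times with ssRNase. The chrM span covers both mitochondrial ribosomal RNAs in a single sequence of 2601 positions, whereas the humanin-like genes are copies of the large one. The ratios of the humanin-like loci therefore set copies of a part of the span against all of it. A sum over several such copies can exceed the bases of the span.

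The protected stretches of a humanin-like locus lay close together, within 1566 nt at MTRNR2L8 (chr11:10529435-10531000), 1915 nt at MTRNR2L3 (chr20:55933486-55935400), 2103 nt at MTRNR2L1 (chr17:22021891-22023993) and 2296 nt at MTRNR2L2 (chr5:79945208-79947503). MTRNR2L8 was the most densely covered. Bases in sites of any dsRNase list made up 85.8% of its span, and 96.0% of these bases were in sites of all 3 dsRNase lists. The covered part was 61.8% of the span at MTRNR2L2, 43.8% at MTRNR2L1 and 21.6% at MTRNR2L3. The share of covered bases found in all 3 dsRNase lists was 80.6%, 68.9% and 52.3% in the same order. In the chr1 segment, which spread over 5802 nt, it was 24.9%. Density and agreement between lists thus both ran from MTRNR2L8 down to MTRNR2L3 within the humanin-like genes. The windows differ in width and their edges were set with the sites in view, so spans from first to last site were used. At MTRNR2L8 and MTRNR2L2 further dsRNase sites lie beyond the upper window edge, so these 2 spans, and the shares of them, stop at the edge of the window and not at the end of the protected run.

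**Figure D3:**
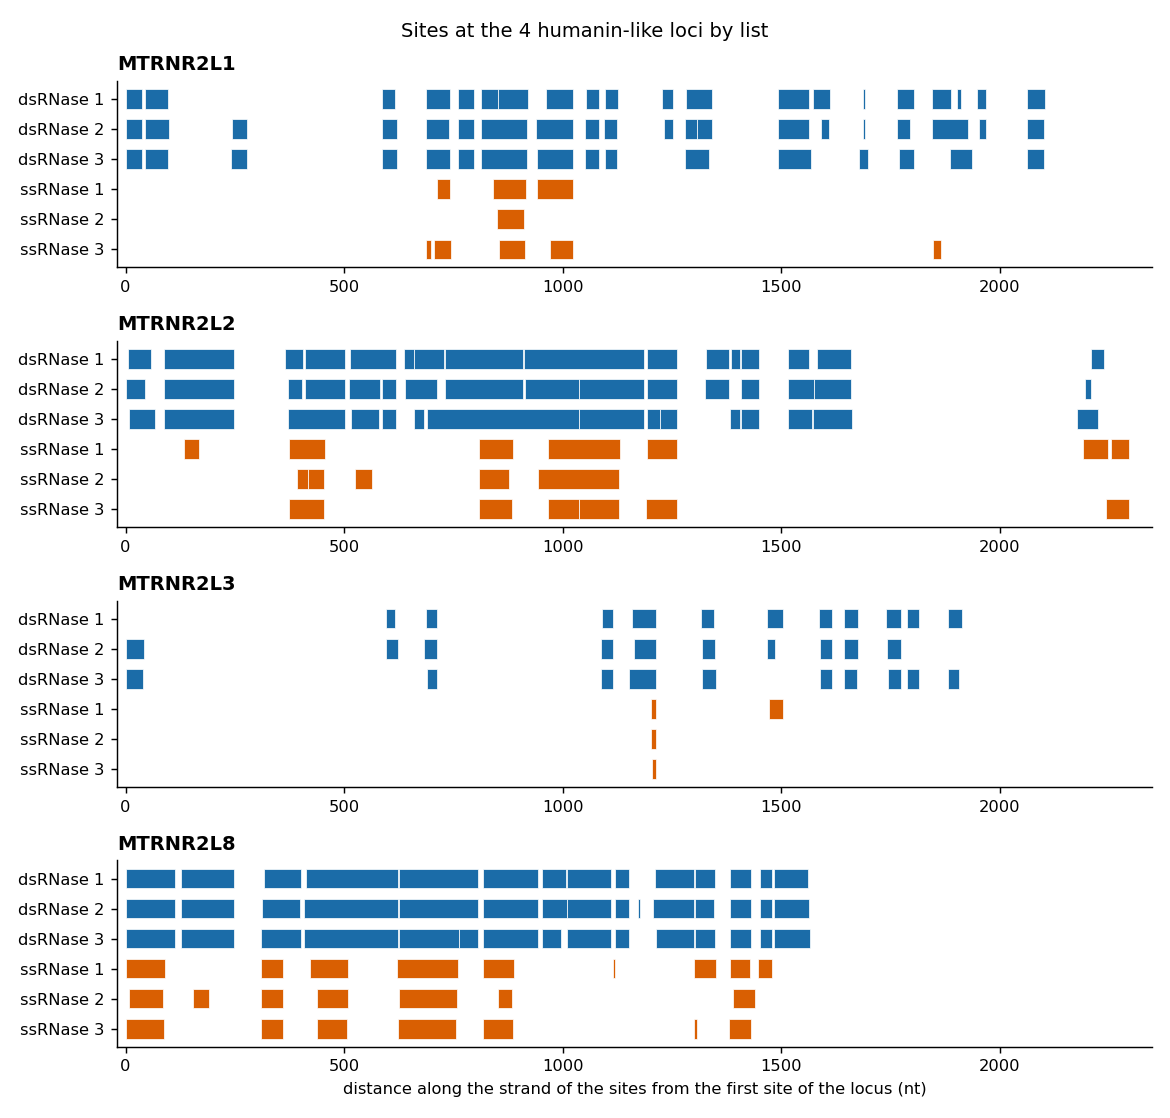
Sites of each of the 6 lists at the 4 humanin-like loci, drawn to scale along the strand of the sites (x axis, distance in nt from the first site of the locus). Rows are replicate lists, with dsRNase in blue and ssRNase in orange. Most orange boxes stand below blue ones, and at MTRNR2L3 the ssRNase rows hold 2, 1 and 1 sites.

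The ssRNase sites sat where dsRNase sites were. Of the bases in ssRNase sites, 99.1% at MTRNR2L1, 90.3% at MTRNR2L2, 100% at MTRNR2L3 and 95.5% at MTRNR2L8 lay inside a site of some dsRNase list. At the 4 loci together 52 of 54 ssRNase sites (96.3%) overlapped a dsRNase site by at least 1 nt. Over the whole ssRNase lists, 16.3% of sites did so. In the other direction, 72 of 178 dsRNase sites (40.4%) at these loci overlapped an ssRNase site, against 75.3% over the whole dsRNase lists. A locus with many dsRNase bases makes such an overlap more likely, and the loci were picked for having many.

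Some stretches were protected in all 6 lists. At MTRNR2L8 these came to 393 bases, the longest being chr11:10530244-10530375 (132 nt), chr11:10530916-10530991 (76 nt) and chr11:10530494-10530561 (68 nt). The others were chr11:10530641-10530684, chr11:10529571-10529611 and chr11:10530116-10530147. At MTRNR2L2 they came to 284 bases, led by chr5:79946375-79946465 (91 nt), chr5:79946467-79946536 (70 nt) and chr5:79946627-79946695 (69 nt), with chr5:79947050-79947085, chr5:79947087-79947092 and chr5:79947100-79947111 as the others. MTRNR2L1 had 1 such stretch, chr17:22022746-22022801 (56 nt). MTRNR2L3 had a stretch of 9 nt, chr20:55934188-55934196. The chr1 segment had none in all 6 lists and 25 nt in 5 of them, chr1:567997-568021. With 5 of 6 lists as the requirement the stretches widened and others joined them. Stretches without a base in all 6 lists were chr17:22022603-22022631, chr17:22022863-22022915 and the single base 22022742 at MTRNR2L1, chr5:79946242-79946279 and chr5:79946281-79946309 at MTRNR2L2, and chr11:10529694-10529697 at MTRNR2L8, and chrM:2728-2738 in the chrM span. The chrM span had 375 bases in all 6 lists, the longest stretches being chrM:2233-2307 (75 nt) and chrM:1417-1490 (74 nt). Some protection therefore recurred under both nucleases at each humanin-like gene, over the most bases at MTRNR2L8 and the fewest at MTRNR2L3.

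The 3 longest sites of each locus only partly covered these stretches. MTRNR2L2 had sites of 348 nt (chr5:79946467-79946814, dsRNase replicate 3), 276 nt (chr5:79946317-79946592, dsRNase replicate 1) and 184 nt (chr5:79946375-79946558, ssRNase replicate 2). The 3 longest sites of MTRNR2L8 came from the 3 dsRNase lists, were 211, 215 and 216 nt long and all started at chr11 position 10530377. In MTRNR2L3 the 3 longest, of 55, 50 and 60 nt in dsRNase replicates 1, 2 and 3, all started at chr20 position 55934188. Sites of 11, 10 and 9 nt in ssRNase replicates 1, 2 and 3 started at the same base. One edge of this site was hence identical in all 6 lists, while its length differed between the nucleases. MTRNR2L1 had sites of 106 and 104 nt over chr17:22022704-22022809 in dsRNase replicates 2 and 3 and one of 85 nt at chr17:22022831-22022915 in replicate 2. The longest in the chr1 segment had 122 nt (chr1:567902-568023) and 75 nt (chr1:567490-567564) in dsRNase replicate 2 and 71 nt (chr1:567957-568027) in replicate 1. Those of the chrM span were longer, with 1172 nt (chrM:632-1803) in dsRNase replicate 2 and 701 nt (chrM:650-1350) and 525 nt (chrM:1954-2478) in replicate 3.

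Exact repetition of edges between lists of one nuclease was also seen at other sites, mostly with dsRNase. Of the 356 ends (starts and ends) of dsRNase sites at the humanin-like loci, 195 (54.8%) fell on the same base in at least 1 other dsRNase list, and 111 (31.2%) in both others. The share with at least 1 other list was 68.2% at MTRNR2L8, 52.7% at MTRNR2L1, 51.1% at MTRNR2L2 and 45.2% at MTRNR2L3. It was 19.2% in the chr1 segment, 28.6% in the chrM span, 9.58% over all dsRNase sites and 23.5% over the best-scoring 10% of each dsRNase list. Both ends were shared with another dsRNase list by 48 of 178 sites (27.0%) at the humanin-like loci and by 1.74% of all dsRNase sites. At MTRNR2L8 it was 20 of 44 (45.5%). With ssRNase, 27 of 108 ends (25.0%) at the humanin-like loci fell on the same base in at least 1 other ssRNase list. That share was 11.7% over all ssRNase sites and 22.0% over the best-scoring 10% of each ssRNase list. It was 11.1% at MTRNR2L1 and 0 of 16 ends in the chr1 segment. Sites in repeated or deeply sequenced RNA can recur more often than others, and as the loci were picked for high dsRNase coverage in these lists, recurrence of their dsRNase sites is partly built in.

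The score of a site, given by the authors with no stated scale, served here to rank the sites of each list among themselves and to find equal scores. At the humanin-like loci 157 of 178 dsRNase sites scored above the median of their list, and their median rank was percentile 96.3. The median rank was 99.7 at MTRNR2L8, 97.4 at MTRNR2L2, 86.0 at MTRNR2L1 and 79.9 at MTRNR2L3. It was 99.8 in the chrM span and 69.2 in the chr1 segment. With ssRNase, 41 of 54 sites at the humanin-like loci scored above the median of their list, with a median rank of 89.7. The ssRNase median rank was 93.3 at MTRNR2L1, 93.1 at MTRNR2L2, 83.9 at MTRNR2L8 and 17.1 at MTRNR2L3. It was 99.7 in the chrM span and 68.4 in the chr1 segment. The site of MTRNR2L3 with the constant edge ranked at 99.7 in all 3 dsRNase lists, the highest rank at its locus in each of them, but at 0.992, 0.257 and 33.2 in ssRNase replicates 1, 2 and 3. The score of the same edge was thus near the top under one nuclease and in the lower part of the list under the other.

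The chr1 segment differed from the humanin-like genes in the exact pairing of its sites with mitochondrial sites. Its sites were compared with all sites on the mitochondrial plus strand of the same list, looking for pairs of equal start and end after a constant shift. Of its 73 sites, 28 (38.4%) had such a pair at only 3 shifts. A shift of 560549 matched 13 sites between chr1:564659-566702 and chrM:4110-6153, a shift of 560550 matched 8 between chr1:567322-568041 and chrM:6772-7491, and a shift of 560548 matched 7 between chr1:568897-570277 and chrM:8349-9729. The shifts run in blocks along the segment and differ by 1 or 2 nt. None of these sites matched the ribosomal RNA span. The name of a ribosomal RNA copy is therefore not borne out for the chr1 segment, whose sites face mitochondrial positions beyond that span.

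Of these 28 sites, 27 also carried the same score as the mitochondrial site, to both decimals. For instance, the site chr1:567326-567376 of dsRNase replicate 1 and the site chrM:6776-6826 of the same list both scored 280.33, and in dsRNase replicate 2 the sites chr1:567902-568023 and chrM:7352-7473, each of 122 nt, both scored 374.92. The 28 sites had 28 different scores. Among all pairs of sites in a list, equal scores occur in 2.74% to 4.77% of pairs with ssRNase and 6.86% to 9.41% with dsRNase. The remaining site, chr1:569766-569800 in dsRNase replicate 3, scored 141.25 against 192.69 at chrM.

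Another 29 chr1 sites shared 1 end with a mitochondrial site at one of these shifts. Of these, 25 were shorter than the mitochondrial site, 12 had the same score and 15 a lower one. A further 12 overlapped a mitochondrial site without a shared end, all 12 were shorter, and 11 had a lower score. Only 4 of 73 overlapped none. A shortened chr1 site with a lower or equal score was thus the usual alternative to a full copy. The matches came from every list with chr1 sites, with 6 of 16, 11 of 27 and 8 of 22 sites matched at both ends in dsRNase replicates 1, 2 and 3, 2 of 4 in ssRNase replicate 1 and 1 of 4 in ssRNase replicate 3. The ssRNase replicate 2 had no site there.

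**Figure D4:**
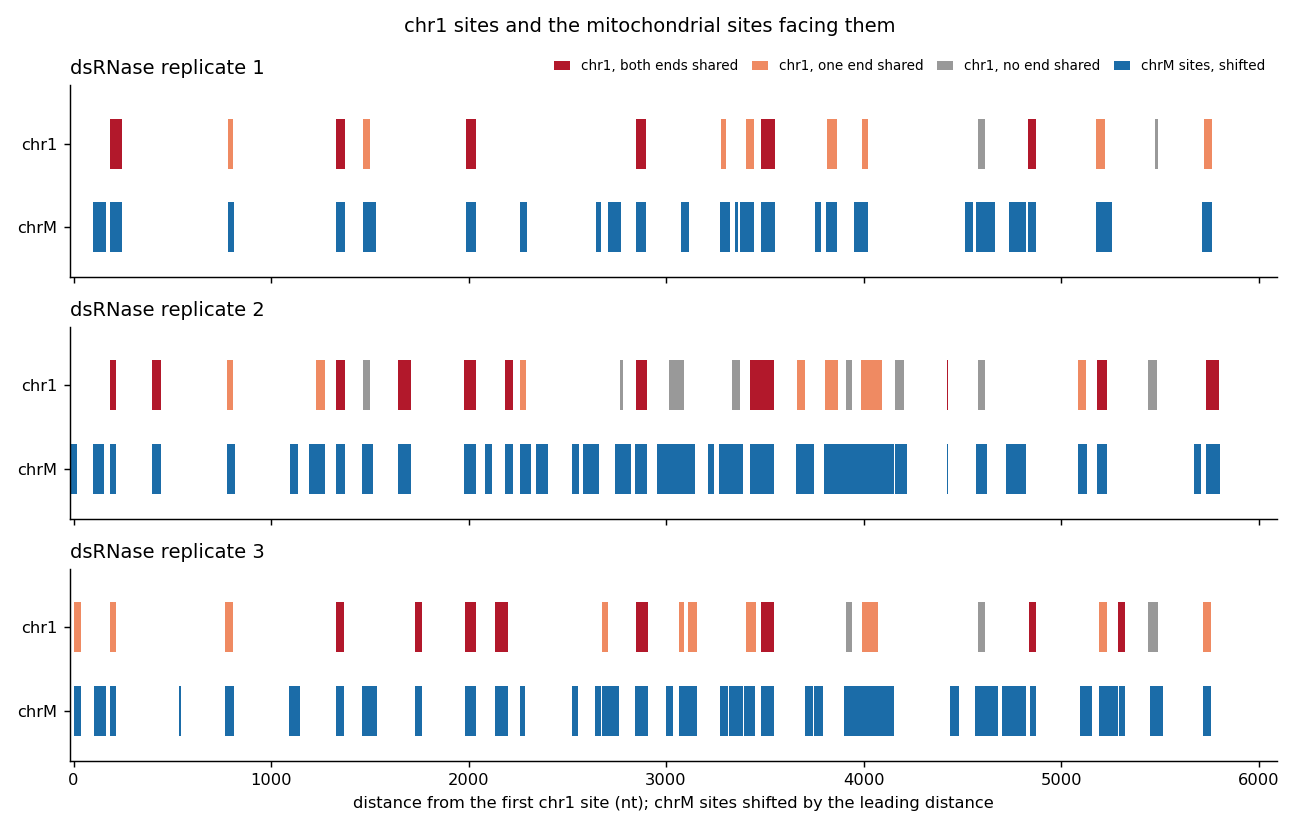
Sites of the chr1 segment (upper row of each panel) and of the mitochondrial plus strand (lower row, blue) in the 3 dsRNase lists, drawn to scale on one axis (x axis, nt from the first chr1 site), with mitochondrial sites moved by the shift that matched 13 sites. Dark red sites share both ends with a mitochondrial site, light red sites share 1 end and grey sites share none. Nearly all chr1 sites stand above a mitochondrial site, and many mitochondrial sites have no chr1 site above them.

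**Figure D5:**
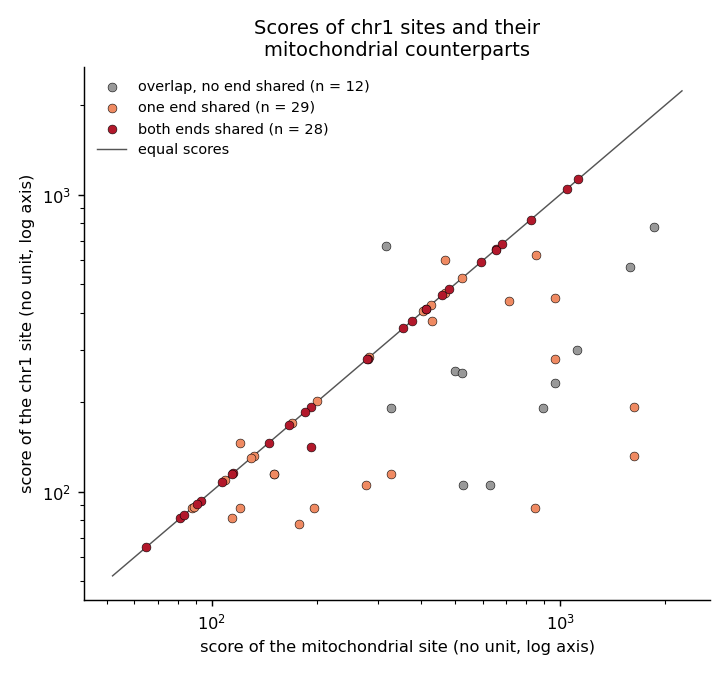
Score of each chr1 plus-strand site (y axis, no unit, log axis) against that of its mitochondrial counterpart in the same list (x axis, no unit, log axis), over the 6 lists. Points on the line have equal scores. Of the 28 sites with both ends shared 27 lie on the line, and of the 29 with 1 shared end 12 do.

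Seen from the mitochondrial side, the match was partial. The dsRNase lists held 96 plus-strand mitochondrial sites in the stretch that faces the chr1 segment. Of these, 25 (26.0%) had a chr1 site with the same ends and 59 (61.5%) had an overlapping one. Bases in chr1 sites came to 51.1% ± 4.42 of the mitochondrial bases there (SD, n = 3 lists), so the spread of chr1 bases between dsRNase lists was accompanied by a similar spread of the mitochondrial bases.

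At the humanin-like loci no run of such pairs at a shared shift was found. For the minus-strand loci, positions were read in reverse, so that both sequences ran 5′ to 3′ before a shift was sought. Of their 232 sites, at most 1 per locus matched a mitochondrial site at any one shift, whether all of the mitochondrial plus strand or only the ribosomal RNA span was searched. Many shifts tied at that number, 59 at MTRNR2L1, 27 at MTRNR2L2, 41 at MTRNR2L3 and 32 at MTRNR2L8. In a simpler comparison that uses no shift, sites were asked to have both the length and the score of some mitochondrial site of either strand in the same list. This held for 3 of 8 ssRNase and 26 of 65 dsRNase sites of the chr1 segment. It held for 0 of 56 dsRNase sites at MTRNR2L1, 0 of 47 at MTRNR2L2, 0 of 31 at MTRNR2L3 and 0 of 44 at MTRNR2L8, and for 0 of their 54 ssRNase sites. No humanin-like site had the length and score of a site at another humanin-like locus either. Sites of unlike length cannot match in either comparison. With dsRNase the median site length was 231 nt in the chrM span and 44 nt at the humanin-like loci, and with ssRNase 48 and 55.5 nt. Sharing of 1 end, or overlap without a shared end, was counted for the chr1 segment only. Whether mitochondrial fragments are among the humanin-like sites was therefore not tested. An insertion or deletion between sites breaks a constant shift but not the comparison by length and score. One inside a site changes its length and can break both. The part of sequence differences in these counts was not tested.

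The windows did not close off every locus. Above the upper edge of the MTRNR2L8 window, within 1000 bp, dsRNase replicates 1, 2 and 3 held 5, 4 and 4 further sites with 373, 328 and 313 bases, between positions 10531033 and 10531756, and ssRNase replicate 1 held 1 of 35 bases. The last site inside ended at 10531000 and the next outside began at 10531033. Above the edge of the MTRNR2L2 window the dsRNase lists held 4 sites each with 183, 188 and 184 bases, between 79947581 and 79947864, and the last site inside ended at 79947503. At MTRNR2L1, MTRNR2L3 and chr1 no list had a site outside the window within 1000 bp of either edge. The bases of MTRNR2L8 and MTRNR2L2 given above therefore cover only part of a longer protected run.

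The opposite strand set the chr1 segment further apart. The humanin-like windows had no site on the other strand in any list, except for 3 ssRNase sites at MTRNR2L3. This gene lies opposite RAE1, which encodes an mRNA export factor, in the GRCh38 annotation. On its minus strand the chr1 window held 110 sites, with 2052, 450 and 1230 bases in the ssRNase lists and 320, 597 and 414 in the dsRNase lists. Of these, 31 (28.2%) matched a site on the mitochondrial minus strand at both ends, at the same 3 shifts, and 30 of the 31 had the same score. The pairing with the mitochondrial lists was thus found on both strands. In bases as listed, ssRNase replicates 1 and 3 were above all dsRNase lists on the minus strand, whereas ssRNase replicate 2 lay within their range. Per 1000000 site bases of the list the order was the opposite, with 201, 154 and 152 in the ssRNase lists and 389, 609.8 and 518 in the dsRNase lists.

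In the merged list over both nucleases, which the authors made from the replicate lists, MTRNR2L8 had 14 sites, 13 with all 3 dsRNase lists behind them and 5 with all 6 lists. MTRNR2L2 had 11 sites, 9 with all 3 dsRNase lists and 2 with all 6. MTRNR2L1 had 19, of which 15 and 1, and MTRNR2L3 had 12, of which 7 and 1. Of the 35 merged chr1 sites 11 had all 3 dsRNase lists and none had all 6. Nearly all merged sites at MTRNR2L8 thus had all 3 dsRNase lists behind them, whereas most of those on chromosome 1 lacked at least 1.

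The windows elsewhere in the genome with the most similar levels were found by the distance of their 6 values, as log2(bases per 1000000 + 20), from the mean of the 5 loci, over 31421 windows. The nearest, at a distance of 0.96, was chr11:122930001-122940000 on the minus strand, with 39.2 ± 8.25 bases per 1000000 with ssRNase and 765.6 ± 174.7 with dsRNase (SD, n = 3). It was followed by chr2:133030001-133040000 (1.12), chr14:102540001-102550000 (1.28), chr6:74220001-74230000 (1.30) and chr11:122920001-122930000 (1.42), all on the minus strand. The loci themselves lay at 0.51 (MTRNR2L1), 1.60 (chr1 segment), 1.99 (MTRNR2L2), 2.28 (MTRNR2L8) and 2.96 (MTRNR2L3). Apart from MTRNR2L1, each member thus lay farther from the mean of the members than any of these 5 windows.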

How the data were processed

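Per the submitters' processing notes, cutadapt 0.9.5, TopHat2 2.0.9 and build hg19 were used. Libraries were treated with a duplex-specific nuclease, which lowers abundant sequences, per the labels' protocols. The deposited lists name CSAR and a false discovery rate of 5%. The score of each site is as deposited by the authors, and neither its scale nor the treatment of multi-mapping reads is given in the sources used here. Positions were read as 1-based and inclusive.

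From the 6 replicate lists, sites were counted by midpoint in the windows, and bases were divided by the site bases of the list where stated. Sites overlapped if they shared 1 nt or more on one strand. Members, windows and lists were chosen with earlier results of these data known, and no test was made. All 5 loci, the chrM span, the 5 nearest windows, stretches in at least 5 of 6 lists and the 3 longest sites per locus were to be named; a stretch that holds one found in all 6 lists is given by the latter, and those of the chrM span by their longest. Transcripts were aligned locally with Biopython 1.88 (match 2, mismatch -3, gap opening -5, extension -2); all 4 symbols matched. The counting and matching code was tested on simulated data. Python 3.11.15, numpy 2.4.6, pandas 2.3.3 and matplotlib 3.10.9 were used. Alternatives covered window assignment, scaling, score, site length, strand totals, tolerance and single lists left out. Sequences at the hg19 sites were not read, since no genome of that build was used here.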

Additional observations from a re-analysis of the deposited data

How the results depend on the processing

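At the 5 nuclear loci, dsRNase lists had the higher mean in 65 of 65 locus and setting combinations and 0 reversed. With each list left out in turn, 5 of 5 loci kept lists without overlap. That outcome, and the order of the means in those settings, was fixed in advance, since the full lists do not overlap. The loci were chosen on this contrast, so neither count is support for it. The summed difference of the 5 loci, dsRNase minus ssRNase, was 5267 bases per 1000000 site bases, and 5091 to 5413 with single lists left out. That of the chrM span was 2763, and 2650 to 2922. By sites per 1000000 sites these differences were 3146 and 304.3, in bases as listed 3513 and 1931, over the better-scoring 50% of sites 7965 and 4665, and against site bases of the same strand 12083 and 10927. With windows widened by 1000 bp, chosen after seeing the data, the sum was 5874. The background of windows without overlap between nucleases went from 9.58% to 4.79% when a site in at least 1 list was enough. The dsRNase ratio of the 5 loci to the chrM span went from 1.92 to 8.71 by number of sites and to 1.72 over the better-scoring 50%.

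Sites with a mitochondrial counterpart at the leading shift numbered 13 in the chr1 segment, 30 within 2 nt and 37 within 5 nt, 0 in the ribosomal RNA span alone and 21 on the other strand, which was added after seeing the data. They numbered 1 at each humanin-like gene at exact ends. Within 2 and 5 nt they were 4 and 5 at MTRNR2L1, 3 and 6 at MTRNR2L2, 3 and 4 at MTRNR2L3, and 2 and 4 at MTRNR2L8. The cause of these moves was not tested, beyond wider tolerances admitting more pairs. Taken by replicate number, the summed dsRNase minus ssRNase difference of the 5 loci was 5261, 4876 and 5663 bases per 1000000 for numbers 1, 2 and 3; no test with or without a replicate block was made, since the loci were chosen on this contrast. Without read counts, depth and its limits are unknown.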

Other observations

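At MTRNR2L8 and MTRNR2L2, but hardly at MTRNR2L1 and MTRNR2L3, neighbouring dsRNase sites were parted by a gap of 1 to 3 nt. Such a gap preceded 11 of 44 dsRNase sites (25.0%) at MTRNR2L8 and 10 of 47 (21.3%) at MTRNR2L2, 2 of 56 at MTRNR2L1 and 0 of 31 at MTRNR2L3. In the whole dsRNase lists it preceded 1.07% of sites, and 2.43% of the best-scoring 10%. In the chrM span it preceded 7 of 28 (25.0%). At MTRNR2L8 the single base chr11 position 10530376 was left out in all 3 dsRNase lists, and so were positions 10529698 to 10529699. At MTRNR2L2 the single base 79946466 was left out between adjacent sites in 3 lists, 2 of them dsRNase. Dense coverage makes short gaps more likely, and its part was not tested.

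In the GRCh38 annotation MTRNR2L8 also holds MIR4485, a microRNA gene on the same strand. The mature sequence in RefSeq (GRCh38.p14) is given with its seed in capitals.
hsa-miR-4485-3p: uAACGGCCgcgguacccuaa

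Read as DNA, these 20 nt occur letter for letter at positions 894 to 913 of the MTRNR2L8 transcript and at positions 893 to 912 of MT-RNR2, and in neither MTRNR2L1 nor MTRNR2L3. The annotated MTRNR2L2 transcript of 87 nt aligns only to positions 963 to 1027 of MT-RNR2. It does not reach this stretch, so whether the MTRNR2L2 locus holds the sequence was not tested.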
